A study of Homo sapiens with 9 samples.

Results

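The genes that make, bind and break down retinoic acid are described here in 3 related breast cancer lines. The 8 genes STRA6, DHRS3, ALDH1A1, ALDH1A3, CRABP1, CRABP2, CYP26B1 and RARRES1 were taken by symbol from a table of 58884 genes, and all 8 were found in it. Retinoic acid, the active acid form of vitamin A, is made and destroyed inside cells. Retinol enters through the membrane receptor STRA6, is oxidised reversibly to retinal, and retinal is oxidised irreversibly to retinoic acid by aldehyde dehydrogenases of the ALDH1A family, while DHRS3 reduces retinal back to retinol. The small cytosolic proteins CRABP1 and CRABP2 bind retinoic acid, which acts through nuclear receptors (RAR and RXR) on target genes such as RARRES1, and CYP26 enzymes hydroxylate it for disposal.

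Their expression was measured by RNA-seq in MDA-MB-231, an established claudin-low human breast cancer line (the parental cells, Par), and in its sub-populations LM2 and BrM2, which were selected in vivo for colonization of the lung and of the brain of mice. Each sub-population is a single derived line. All cells were grown as monolayers in serum-containing medium with no retinoid named in the sample descriptions. These descriptions also name no genotype or drug that otherwise separates the groups. Each line had 3 replicates, described as harvests at different passages, with 14.4 M to 24.5 M counts on genes per library. The libraries held the markers of mesenchymal-like breast cancer cells (VIM at 636 to 1876 CPM, counts per 1000000 after scaling of the library sizes) and the keratin KRT8 (306 to 1183 CPM), and the summed markers of leukocytes, endothelium, neurons and glia, fibroblasts and lung epithelium reached at most 4.62, 7.39, 21.3, 2.18 and 0.158 CPM. The sum for neurons and glia was GFAP alone in the highest library, and the 8 luminal epithelial markers summed to 614 to 2116 CPM, most of it keratins, with ESR1 and PGR at most at 0.653 and 0.177 CPM.

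Of the 8 genes, 5 passed the filter on low counts (13055 genes in all) and were tested between the lines with edgeR's quasi-likelihood test and Benjamini-Hochberg adjustment over all tested genes, at an adjusted p under 0.05. STRA6, DHRS3, ALDH1A3, CRABP2 and CYP26B1 are these 5. STRA6 passed the filter only through LM2 replicate 1. RARRES1, ALDH1A1 and CRABP1 were below it and are described by their counts. In LM2 vs Par, 1 of the 5 was called, against 8.69% of all tested genes. In BrM2 vs Par 2 of 5 were called, against 13.3%, and in BrM2 vs LM2 2 of 5, against 8.1%. With 5 tested members, nothing is read about the group as a whole from these counts. The comparisons of LM2 and of BrM2 with Par share the Par libraries.

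Libraries with the same replicate number deviated alike from their line means, though to unlike degrees. The Pearson correlations between lines were 0.83 to 0.90 for replicate 1 and 0.23 to 0.69 for replicate 2. The number was also added to the model as a block, which compares the lines within each number. This fit called 3, 2 and 4 of the 5 members in LM2 vs Par, BrM2 vs Par and BrM2 vs LM2, where 34.5%, 42.7% and 37.5% of all tested genes passed. With replicate 2 or replicate 3 left out of all 3 lines, each of the members' 5 calls was lost, at adjusted p between 0.077 and 0.32 (edgeR), and without replicate 1 all 5 were kept. The values of each library are drawn in the plot of the 8 genes.

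**Figure D1:**
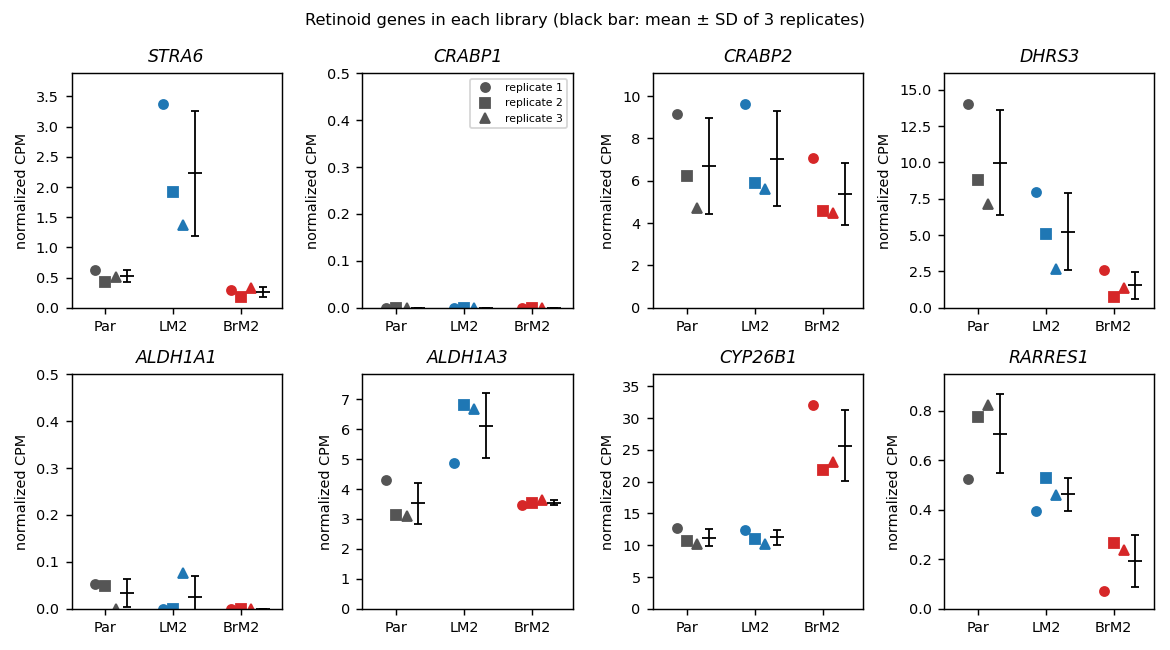
Normalized CPM (y axis, from 0, with its own range in each panel) of the 8 retinoid genes in Par, LM2 and BrM2. Each symbol is 1 library, its shape gives the replicate number, and the black bar is the mean ± SD of 3 replicates. STRA6 was highest in the 3 LM2 libraries (1.38 to 3.38 CPM) and CYP26B1 in the 3 BrM2 libraries (21.9 to 32.1 CPM), DHRS3 was lowest in BrM2, and CRABP1 had no count.

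Per kilobase of transcript, the levels of the 8 genes can be set side by side. In Par, CRABP2 was the most abundant at 6.88 ± 2.31 CPM per kilobase (SD, n = 3), followed by DHRS3 at 4.53 ± 1.64, and the libraries of these neighbours overlapped. CYP26B1 came next at 2.45 ± 0.291 CPM per kilobase, then ALDH1A3 at 1.01 ± 0.197, RARRES1 at 0.413 ± 0.0936 and STRA6 at 0.194 ± 0.0363, each below the one before without overlap. In LM2 the order was CRABP2 (7.24 ± 2.31 CPM per kilobase), CYP26B1 (2.46 ± 0.248), DHRS3 (2.38 ± 1.21), ALDH1A3 (1.76 ± 0.312), STRA6 (0.822 ± 0.382) and RARRES1 (0.27 ± 0.0388), and the middle positions overlapped, with DHRS3 spanning 1.22 to 3.63. In BrM2, CYP26B1 (5.64 ± 1.23 CPM per kilobase) and CRABP2 (5.52 ± 1.52) shared the top and could not be ordered. ALDH1A3 (1.02 ± 0.0252) and DHRS3 (0.708 ± 0.425) followed with overlapping libraries, and RARRES1 (0.113 ± 0.0606) and STRA6 (0.0994 ± 0.0305) were lowest, also with overlap. 

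STRA6 (ENSG00000137868), the receptor that takes up retinol from its plasma carrier, maps to chr15:74179466-74212259 (GRCh38.p14, minus strand). It had 12, 9 and 13 counts in the Par libraries, which is 0.63, 0.436 and 0.511 CPM. In LM2 it had 68, 47 and 36 counts, or 3.38, 1.92 and 1.38 CPM. In BrM2 it had 4, 4 and 7 counts, or 0.295, 0.177 and 0.335 CPM. Every LM2 library was above every Par library, and these were above every BrM2 library. In bulk RNA, fewer cells that express a gene and less RNA per cell cannot be told apart. STRA6 was 4.23-fold higher in LM2 than in Par (log2 fold change 2.07, standard error, SE, 0.41, edgeR adjusted p = 0.015). The call was lost without Par replicate 2 or Par replicate 3 (edgeR adjusted p = 0.078 and 0.065). BrM2 had 8.27-fold less STRA6 than LM2 (log2 fold change -3.03, SE 0.46, edgeR adjusted p = 0.0039), and every one of the 9 fits without 1 library made this call. STRA6 entered only through LM2 replicate 1 and the filter was not redone, so these tests and fits are not independent of it. Without any filter, STRA6 passed in LM2 vs Par (edgeR adjusted p = 0.0032) and in BrM2 vs LM2 (edgeR adjusted p = 8.7e-05). The value of BrM2 against Par, -0.97 (SE 0.49), did not pass (edgeR adjusted p = 0.27).

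Among the genes that take up, bind and store retinol, 6 of 15 were tested. LRAT, which esterifies retinol for storage, was higher in LM2, as STRA6 was. It passed the filter only through LM2 replicate 2, so its test in LM2 vs Par is not independent of that filter. It was at 0.308 ± 0.0686 CPM (SD, n = 3) in Par, 1.79 ± 0.771 CPM in LM2 and 0.918 ± 0.16 CPM in BrM2. Its log2 fold change was 2.53 in LM2 vs Par (SE 0.43, edgeR adjusted p = 0.0066) and 1.57 in BrM2 vs Par (SE 0.44, edgeR adjusted p = 0.0495, just under the threshold). The latter call was kept only in the fit without LM2 replicate 1, and the other 8 fits gave adjusted p of 0.059 to 0.17 (edgeR). PNPLA4, a lipase that can hydrolyse retinyl esters, was at 17.4 ± 3.67 CPM in Par, 8.51 ± 3.12 CPM in LM2 and 7.02 ± 2.36 CPM in BrM2. BrM2 differed from Par by -1.31 on the log2 scale (SE 0.34, edgeR adjusted p = 0.036). That of LM2 from Par, -1.03, passed only with the block (edgeR adjusted p = 0.00046), and every LM2 and BrM2 library was below every Par library. The BrM2 call was lost without any 1 of the Par libraries, LM2 replicate 2, BrM2 replicate 2 or BrM2 replicate 3, at adjusted p of 0.063 to 0.15 (edgeR).

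DHRS3 (ENSG00000162496), which reduces retinal to retinol and is itself a known retinoic acid target, maps to chr1:12567910-12618210 (GRCh38.p14, minus strand). It had 267, 181 and 181 counts in the Par libraries (14, 8.76 and 7.11 CPM). In LM2 there were 161, 124 and 70 counts (8, 5.06 and 2.68 CPM). In BrM2 there were 35, 17 and 28 counts (2.58, 0.75 and 1.34 CPM). Every BrM2 library was below every library of the other lines, while LM2 and Par overlapped. DHRS3 was 6.39-fold lower in BrM2 than in Par (log2 fold change -2.71, SE 0.55, edgeR adjusted p = 0.012). Without BrM2 replicate 2 or BrM2 replicate 3 this call was lost, at adjusted p = 0.0505 and 0.062 (edgeR). In LM2 vs Par the log2 fold change was -0.93 (SE 0.50), which did not pass without the block (edgeR adjusted p = 0.37) and passed with it (-0.98, edgeR adjusted p = 0.0097). In BrM2 vs LM2 it was -1.78 (SE 0.54, edgeR adjusted p = 0.088), and -1.76 with the block (edgeR adjusted p = 0.00084). Replicate 1 was the highest DHRS3 library of each line.

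Among the other retinol and retinal dehydrogenases and reductases, 8 of 16 listed genes were tested, and RDH10, the main retinol dehydrogenase of many tissues, differed from Par by 0.23 (LM2) and 0.09 (BrM2) on the log2 scale, and neither passed. SDR16C5, an epidermal retinol dehydrogenase, moved in opposite directions in the sub-populations. It was at 1.93 ± 0.476 CPM (SD, n = 3) in Par, 0.281 ± 0.0406 CPM in LM2 and 4.98 ± 0.613 CPM in BrM2. On the log2 scale the change was -2.75 in LM2 vs Par (SE 0.31, edgeR adjusted p = 0.00092) and 1.37 in BrM2 vs Par (SE 0.26, edgeR adjusted p = 0.0087), and both calls were kept in all 9 fits without 1 library. With a replicate number left out of all lines, the lowest fit called no pathway gene beyond the members in LM2 vs Par, so that call of SDR16C5 was lost. In BrM2 vs Par the lowest such fit called 1 of these genes, and which one is not given here. DHRS7, a reductase that also acts on retinal, was at 16.4 ± 1.06 CPM in Par, 15.6 ± 0.774 CPM in LM2 and 8.13 ± 0.816 CPM in BrM2. It fell in BrM2 vs Par by 1.01 on the log2 scale (SE 0.18, edgeR adjusted p = 0.0068).

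ALDH1A3 (ENSG00000184254) and ALDH1A1 (ENSG00000165092) encode retinal dehydrogenases. ALDH1A3 maps to chr15:100879831-100916626 (GRCh38.p14, plus strand). It had 82, 65 and 79 counts in Par (4.31, 3.15 and 3.1 CPM). The LM2 libraries had 98, 167 and 174 counts (4.87, 6.81 and 6.67 CPM). The BrM2 libraries had 47, 80 and 76 counts (3.47, 3.53 and 3.64 CPM). The LM2 libraries were above all others, and those of BrM2 lay inside the range of Par. ALDH1A3 was 1.74-fold higher in LM2 than in Par, a log2 fold change of 0.80 (SE 0.24) that missed the threshold without the block (edgeR adjusted p = 0.075) and passed with it (edgeR adjusted p = 0.014). In BrM2 vs LM2 the log2 fold change was -0.79 (SE 0.24), with an adjusted p of 0.086 without and 0.016 with the block (edgeR). The difference between BrM2 and Par was 0.01 (SE 0.24). Replicate 1 was the lowest LM2 library and the highest Par library of ALDH1A3, and without LM2 replicate 1 both comparisons with LM2 passed (edgeR adjusted p = 0.042 and 0.046). A gene on the opposite strand, ENSG00000259583, overlaps exons of ALDH1A3, with 0.711, 0.894 and 0.369 CPM in Par, LM2 and BrM2. The strand that was counted is not given in the sources used here.

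ALDH1A1, the family member best known as a stem cell marker in breast tissue, was at the limit of detection. It had 1, 1 and 0 counts in Par, 0, 0 and 2 in LM2 and 0 in each BrM2 library. A count of 0 allows up to 3 counts, which is 0.115 to 0.221 CPM at the depth of these libraries, so no fold can be given. ALDH1A2, the third member of the family, had 8, 5 and 12 counts in Par, 1, 1 and 3 in LM2 and 1, 3 and 1 in BrM2. ALDH1B1, a mitochondrial enzyme that also accepts retinal, was far more abundant, at 55.3 ± 7.76 CPM (SD, n = 3) in Par, 63.3 ± 15.3 CPM in LM2 and 63.4 ± 6.81 CPM in BrM2, with no call in any comparison. Of the ALDH1A enzymes, ALDH1A3 alone passed the filter on low counts.

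CRABP2 (ENSG00000143320), which carries retinoic acid to its nuclear receptors, maps to chr1:156699606-156705784 (GRCh38.p14, minus strand). It had 174, 129 and 120 counts in Par (9.14, 6.24 and 4.71 CPM), 194, 144 and 147 in LM2 (9.64, 5.88 and 5.63 CPM), and 96, 104 and 93 in BrM2 (7.09, 4.59 and 4.46 CPM). The 3 lines overlapped, and in each of them replicate 1 was the highest library. The log2 fold change was 0.07 in LM2 vs Par (SE 0.34) and -0.32 in BrM2 vs Par (SE 0.34), with adjusted p of 0.95 and 0.66 (edgeR). CRABP1 (ENSG00000166426), its paralog, had 0 counts in all 9 libraries, with the same upper limit of 0.115 to 0.221 CPM. The transcripts of CRABP2 share no stretch of 50 bases with another gene, which leaves the counts of the pair separable.

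CYP26B1 (ENSG00000003137), one of the enzymes that hydroxylate retinoic acid, maps to chr2:72129238-72147862 (GRCh38.p14, minus strand). It had 241, 221 and 258 counts in Par, which is 12.7, 10.7 and 10.1 CPM. In LM2 it had 251, 268 and 268 counts, or 12.5, 10.9 and 10.3 CPM. In BrM2 it had 435, 496 and 481 counts, or 32.1, 21.9 and 23.1 CPM. The BrM2 libraries were all above those of the other lines, and LM2 and Par overlapped throughout. CYP26B1 was 2.3-fold higher in BrM2 than in Par (log2 fold change 1.20, SE 0.22, edgeR adjusted p = 0.0074), a call kept in all 9 fits that left out 1 library. It was 2.29-fold higher in BrM2 than in LM2 (log2 fold change 1.19, SE 0.22, edgeR adjusted p = 0.011). Without LM2 replicate 2 or LM2 replicate 3 the latter adjusted p was 0.058 and 0.055 (edgeR). LM2 vs Par gave 0.01 (SE 0.22, edgeR adjusted p = 0.99).

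The other CYP26 genes were barely detected, with at most 1 count of CYP26A1 and of CYP26C1 in any library. CYP2S1, an epithelial cytochrome P450 that can act on retinoic acid, was lower in both sub-populations than in Par. It was at 8.73 ± 2.04 CPM (SD, n = 3) in Par, 2.83 ± 1.25 CPM in LM2 and 3 ± 0.23 CPM in BrM2, with log2 fold changes of -1.63 (SE 0.33, edgeR adjusted p = 0.016) and -1.54 (SE 0.33, edgeR adjusted p = 0.015). Each of these calls was kept in 6 of the 9 fits without 1 library. They were lost without Par replicate 1 and without replicate 2 or 3 of the sub-population concerned, at adjusted p between 0.054 and 0.077 (edgeR). The log2 fold changes of the 5 tested members are shown together in the plot of the 3 comparisons.

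**Figure D2:**
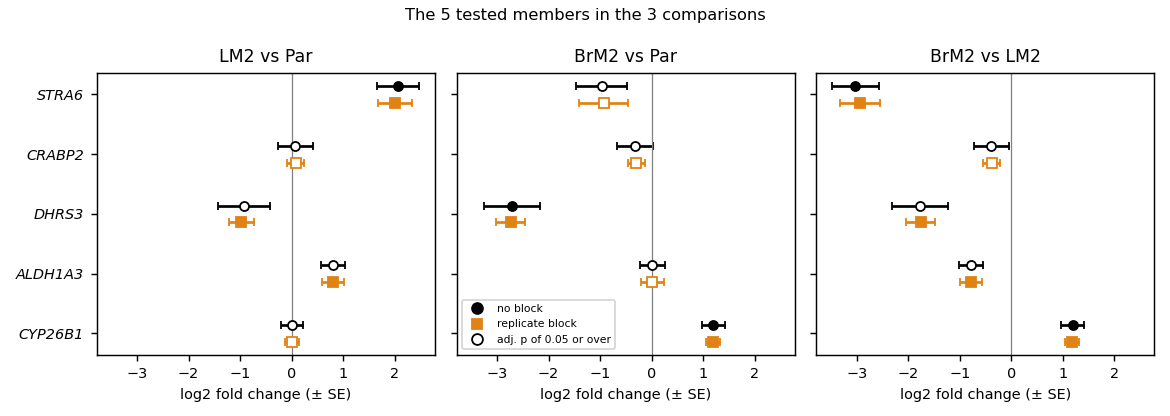
Log2 fold changes (x axis) of the 5 tested members in LM2 vs Par, BrM2 vs Par and BrM2 vs LM2, with the standard error as bars. Black circles are the model without the replicate number and orange squares the model with it as a block, and filled symbols have an adjusted p under 0.05. The estimates of both models lay close together, for DHRS3 in BrM2 vs Par at -2.71 and -2.74, and the bars were shorter with the block.

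RARRES1 (ENSG00000118849), a membrane protein first known as a gene induced by a synthetic retinoid in skin, maps to chr3:158696892-158732457 (GRCh38.p14, minus strand). It had 10, 16 and 21 counts in Par (0.525, 0.774 and 0.825 CPM), 8, 13 and 12 in LM2 (0.397, 0.53 and 0.46 CPM), and 1, 6 and 5 in BrM2 (0.0738, 0.265 and 0.24 CPM). Every BrM2 library was below every library of the other lines, and LM2 and Par overlapped at their edges. An exact permutation test of 3 libraries against 3, 2-sided, gave p = 0.1 for BrM2 vs Par, the smallest it can give. Under edgeR's own filter on low counts, RARRES1 was tested and passed in BrM2 vs Par (adjusted p = 0.026). Without a filter the log2 fold change was -1.76 (SE 0.58, edgeR adjusted p = 0.062). Exons of MFSD1 on the opposite strand, at 49.7, 61.1 and 53.6 CPM in Par, LM2 and BrM2, overlap RARRES1. Its low counts are uncertain to that extent.

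The receptors that answer to retinoic acid were set beside these genes, since RARB is itself a known retinoic acid target. RARB, which like MEIS1 passed the filter only through BrM2, was at 0.151 ± 0.0949 CPM (SD, n = 3) in Par, 0.279 ± 0.201 CPM in LM2 and 2.81 ± 0.776 CPM in BrM2, with 26, 75 and 67 counts in the BrM2 libraries against 1, 5 and 4 in Par and 1, 9 and 11 in LM2. All BrM2 libraries stood above the rest. The log2 fold change was 4.16 in BrM2 vs Par (SE 0.63, edgeR adjusted p = 0.0027) and 3.27 in BrM2 vs LM2 (SE 0.57, edgeR adjusted p = 0.0087), and both were kept in all 9 fits without 1 library. Since RARB entered the test only through BrM2, these p-values and fits are not support independent of the filter. With a replicate number left out of all lines, the lowest fit called 1 pathway gene beyond the members in each of these comparisons. Whether that gene was RARB is not given here. The other tested receptors were RARA, RARG, RXRA and RXRB, at 12.2, 35, 77.5 and 149 CPM in Par. They had no call without the block in any comparison. With the block, RXRA passed in BrM2 vs Par, at 43.5 ± 20.6 against 77.5 ± 20.4 CPM (edgeR adjusted p = 0.0069). RXRG had at most 5 counts in any library. In LM2 vs Par, 0 of the 5 tested receptors were called by edgeR, where it called 8.69% of all 13055 tested genes. Likewise 0 had an unadjusted edgeR p under 0.05, against 2640 of all tested genes, and 0 were called by DESeq2, against 1893. Nothing is read from these counts.

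Of the other genes known to respond to retinoic acid, 10 were tested. In LM2 vs Par 0 were higher and 2 lower, where 4.17% and 4.52% of all tested genes were called. In BrM2 vs Par 1 was higher and 3 lower, against 6.25% and 7.02%. With the block, 4 were higher and 2 lower in LM2 vs Par, where 34.5% of all tested genes passed. The list was chosen with earlier results known, so nothing is read from these counts. Genes called without the block are given here. RARRES2, which encodes the chemokine-like protein chemerin, fell from 42.5 ± 20 CPM (SD, n = 3) in Par to 0.907 ± 0.204 CPM in LM2 and 0.372 ± 0.266 CPM in BrM2. This is a log2 fold change of -5.55 (SE 0.52, edgeR adjusted p = 0.00038) and of -6.91 (SE 0.58, edgeR adjusted p = 0.00018). PLAAT4, a phospholipase formerly named RARRES3, fell from 67.7 ± 32 CPM in Par to 6.99 ± 4.17 CPM in LM2 and 4.39 ± 1.99 CPM in BrM2 (edgeR adjusted p = 0.0056 and 0.0019). All 4 of these calls were kept in each of the 9 fits without 1 library. With a replicate number left out of all lines, the lowest fit called no pathway gene beyond the members in LM2 vs Par, so both LM2 calls were lost there. In BrM2 vs Par the lowest such fit called 1, so RARRES2 and PLAAT4 were not both kept. MEIS1, a homeobox factor, rose in BrM2, from 0.453 ± 0.0861 CPM in Par to 2.57 ± 0.485 CPM (log2 fold change 2.49, SE 0.38, edgeR adjusted p = 0.0029). MEIS1 passed the filter only through BrM2, so this test is not independent of the filter. TGM2, a transglutaminase induced by retinoic acid in many cells, was at 2098 ± 477 CPM in Par, 2473 ± 1415 CPM in LM2 and 686 ± 245 CPM in BrM2 (log2 fold change in BrM2 vs Par -1.61, SE 0.41, edgeR adjusted p = 0.033). The TGM2 call was lost without any 1 of the Par libraries or without BrM2 replicate 2 or 3, at adjusted p of 0.066 to 0.14 (edgeR).

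Over the 56 other genes of the pathway in the table, 31 were tested. In LM2 vs Par 1 was higher and 4 were lower, where 4.17% and 4.52% of all tested genes were called in these directions. In BrM2 vs Par 4 were higher and 6 lower, against 6.25% and 7.02%. In BrM2 vs LM2, 3 were higher (SDR16C5, RARB and MEIS1) and 2 lower (DHRS7 and TGM2), against 4.11% and 3.99%. Their median log2 fold change was -0.07, -0.09 and -0.14 in the 3 comparisons, beside medians over all tested genes of 0.01, -0.02 and -0.03. With the block, 15, 17 and 15 of the 31 passed, where 34.5%, 42.7% and 37.5% of all tested genes did. The list was chosen with earlier results of these data known, so nothing is read about the pathway from these counts. Of the other genes of the pathway, the plot by role shows each one tested.

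**Figure D3:**
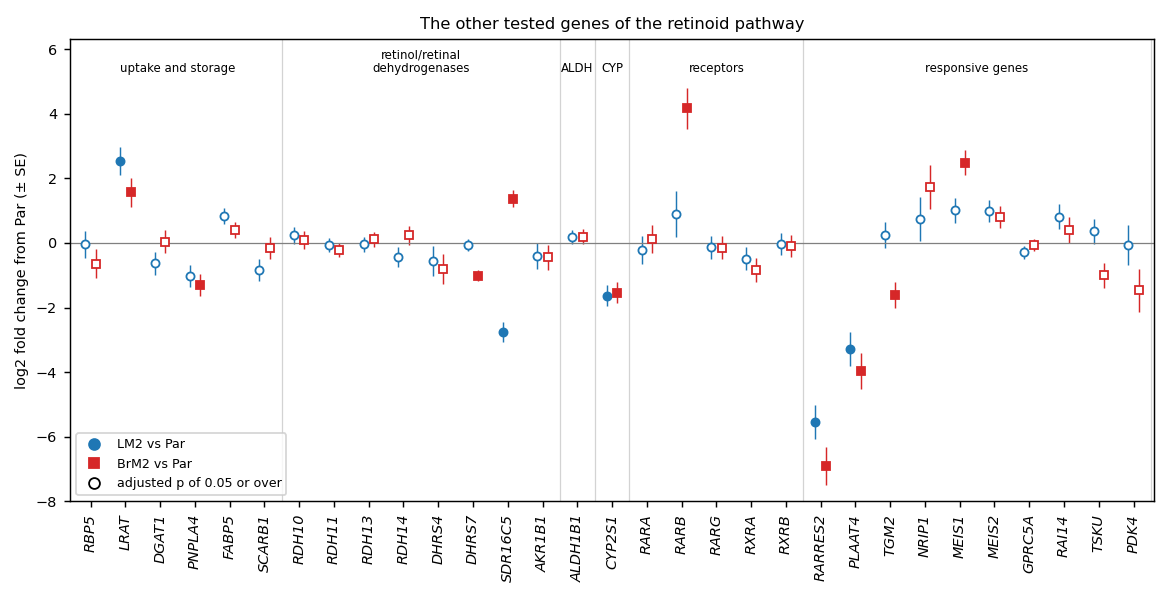
Log2 fold change from Par (y axis, ± standard error) of the 31 other tested retinoid genes, grouped by role along the x axis. Blue circles are LM2 and red squares BrM2, and filled symbols have an adjusted p under 0.05 in edgeR without the block. RARRES2 and PLAAT4 lay far below 0 in both sub-populations, SDR16C5 lay below 0 in LM2 and above 0 in BrM2, and RARB stood at 4.16 in BrM2.

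The 250 bases before the annotated start of the 3 members that differed between lines without the block are given here from RefSeq (GRCh38.p14), to show the promoter sequence beside the values above. Capitals mark half-sites of the receptors for retinoic acid and related ligands, searched on both strands as AGGTCA or AGTTCA or GGGTCA or GGTTCA. STRA6 is at chr15:74212260-74212509, DHRS3 at chr1:12618211-12618460 and CYP26B1 at chr2:72147863-72148112, each read 5′ to 3′ along the minus strand.
STRA6: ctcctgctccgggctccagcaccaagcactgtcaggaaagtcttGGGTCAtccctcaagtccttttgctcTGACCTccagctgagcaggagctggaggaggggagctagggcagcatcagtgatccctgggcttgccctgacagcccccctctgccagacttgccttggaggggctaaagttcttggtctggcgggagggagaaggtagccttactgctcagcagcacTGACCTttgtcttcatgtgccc
DHRS3: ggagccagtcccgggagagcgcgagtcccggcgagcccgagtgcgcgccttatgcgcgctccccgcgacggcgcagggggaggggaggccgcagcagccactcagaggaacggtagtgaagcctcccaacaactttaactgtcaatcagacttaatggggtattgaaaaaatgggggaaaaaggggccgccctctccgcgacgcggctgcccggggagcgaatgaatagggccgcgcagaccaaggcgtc
CYP26B1: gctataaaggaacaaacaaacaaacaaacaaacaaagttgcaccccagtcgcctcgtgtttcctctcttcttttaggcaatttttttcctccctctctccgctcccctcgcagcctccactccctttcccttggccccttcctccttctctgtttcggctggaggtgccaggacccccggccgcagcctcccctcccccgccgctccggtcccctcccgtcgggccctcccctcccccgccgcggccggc

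The stretch of STRA6 held 3 half-sites, which begin 206, 180 and 22 bases before the start. Of the 27305 promoters of the same length, 34% held at least 1 half-site and 1.35% held 3 or more. The stretches of DHRS3 and CYP26B1 held none, nor did those of ALDH1A1, ALDH1A3, CRABP1 and RARRES1, and that of CRABP2 held 1. Direct repeats of the half-site with a spacer of 1, 2 or 5 bases, the arrangements bound by RAR and RXR pairs, were in none of the 8 stretches and in 0.0952%, 0.0366% and 0.0696% of all promoters. The stretch of ALDH1A3 was the richest in G and C of the 8, at 82.4%, with 6 copies of GGGCGG, a motif that 42.3% of all promoters held at least once and 14% held 3 or more times. That of CYP26B1 held 1 copy of TATAAA, at the end of the stretch farthest from the annotated start. At least 1 copy, on either strand, was in 11.1% of all promoters.

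STRA6, CRABP1 and ALDH1A3 all lie on chromosome 15. Of the 40 tested genes within 2 Mb of STRA6, 31 had a higher value in LM2 than in Par, with a median log2 fold change of 0.38. The same was seen for 18 of 19 genes around CRABP1 (median 0.59) and 15 of 16 around ALDH1A3 (median 0.72), while 51.3% of all tested genes were above 0. In LM2 vs Par, 16 of 18 genes around RARRES1 on chromosome 3 (median 0.42) and 5 of 6 around ALDH1A1 on chromosome 9 (median 0.45) were also above 0. Around CRABP2, DHRS3 and CYP26B1 the numbers were 30 of 60, 12 of 23 and 18 of 32 (medians -0.01, 0.01 and 0.10). In BrM2 vs Par the medians around STRA6, CRABP1 and ALDH1A3 were -0.01, -0.07 and 0.01. The log2 fold change of ALDH1A3 in LM2 vs Par, 0.80, was close to the median of its neighbours, and that of STRA6, 2.07, was above it. Around CYP26B1 on chromosome 2, 28 of 32 tested genes were above 0 in BrM2 vs Par, with a median of 0.47 beside 1.20 for CYP26B1, and 48.5% of all genes were above 0. The 23 genes around DHRS3 had a median of 0.06 in BrM2 vs Par, beside -2.71 for DHRS3. Whether the neighbourhood has a part in the values of these members was not tested. The values are drawn in the plot of neighbouring genes.

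**Figure D4:**
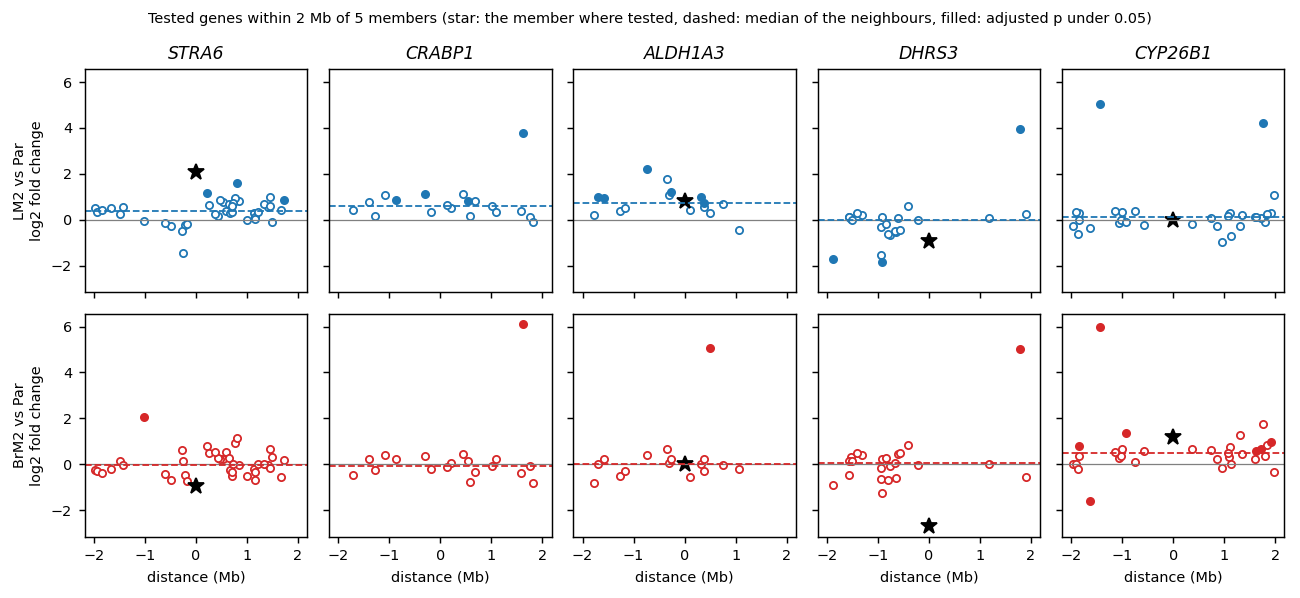
Log2 fold change (y axis) of tested genes within 2 Mb of STRA6, CRABP1, ALDH1A3, DHRS3 and CYP26B1 against their distance from the member (x axis, in Mb), in LM2 vs Par (upper row) and BrM2 vs Par (lower row). Stars mark the member where it was tested, dashed lines the median of the neighbours, and filled circles an adjusted p under 0.05. Most neighbours of the 3 chromosome 15 genes were above 0 in LM2, as were those of RARRES1 and ALDH1A1 (not drawn), and DHRS3 lay below all of its tested neighbours in BrM2. Around DHRS3 and CYP26B1, 12 of 23 and 18 of 32 neighbours were above 0 in LM2.

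Among themselves the 5 tested members followed different patterns. Over the 9 libraries, which share lines and replicate numbers, the Pearson correlation of log2 CPM ran from -0.66 for DHRS3 and CYP26B1 to 0.76 for ALDH1A3 and STRA6. By the same measure, the genes most like DHRS3 were S100A4 (0.98) and S100A6 (0.98), calcium-binding proteins at 992 and 4363 CPM in Par and 193 and 1202 CPM in BrM2. STRA6 was most like SELENOS (0.99), a neighbour of ALDH1A3 at 0.376 Mb, and PLIN4 (0.99), CYP26B1 like RBM19 (0.99) and ABI3 (0.99), ALDH1A3 like PAPPA-AS2 (0.97) and KCNK2 (0.95), and CRABP2 like PHF19 (0.99) and USP11 (0.97). ABI3 was listed at 0 CPM in Par and at 4.01 CPM in BrM2.

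Replicate 1 differed from the other replicates in the same direction in every line for some members. On the scale of log2(CPM + 1), replicate 1 of CRABP2 was above the mean of the other 2 replicates by 0.66 in Par, 0.66 in LM2 and 0.55 in BrM2. For DHRS3 the differences were 0.76, 0.93 and 0.82, and for CYP26B1 0.26, 0.22 and 0.50. ALDH1A3 gave 0.36, -0.40 and -0.04. For STRA6 they were 0.15, 0.73 and 0.05, and for RARRES1 -0.24, -0.10 and -0.22.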

How the data were processed

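The authors made stranded mRNA libraries, aligned paired-end reads to hg38 with STAR (version 2.7.0) and deposited whole-number counts per gene, which are not normalized. Their table of log2 fold changes and adjusted p-values was not used. Of 58887 rows, 3 identifiers were repeated with identical counts and kept once. Genes were kept if their largest normalized count exceeded 47.1, a threshold found as in HTSFilter, which left 13055. Lines were compared over all 9 libraries with edgeR 4.0.16 (TMM, quasi-likelihood, 2-sided, R 4.3.3), with these alternatives: DESeq2 1.42.0, RLE factors, the filter of filterByExpr, no filter, the 2 lines alone, the replicate block, and fits without 1 library or 1 replicate number. The filter was set once on all 9 libraries and was not redone in fits that left libraries out. CPM use TMM-scaled library sizes. The standard error is the log2 fold change divided by the square root of F. P-values measure the spread between passages of 1 line. The replicate numbers were taken as pairing the libraries, since deviations from the line means correlated at 0.23 to 0.90 in all 9 same-numbered pairs. Deviations within a line sum to 0, so a shared departure of replicate 1 alone would also make replicates 2 and 3 correlate. Pairs with different numbers were not compared, so the check cannot show that replicates 2 and 3 are paired. Scripts were tested on simulated data. Positions, and promoter sequences for all 8 members, came from RefSeq (GRCh38.p14, matched for 92.9% of tested genes), transcript lengths from canonical GENCODE transcripts. Named were the 8 members, called genes of the wider list, all 6 receptors, the paralogs ALDH1A2, CYP26A1 and CYP26C1, and the 2 genes most correlated with each tested member. RDH10, ALDH1B1, RDH5, BTG2, CD38, HOXB2 and the overlapping genes were named besides, after their values were seen. Another gene that the rule names is not reported here. The members and lists were chosen with earlier results of these data known.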

Additional observations from a re-analysis of the deposited data

Results flagged for a closer look

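For 7 genes of the retinoid route (2 of the 5 tested members and 5 of the 31 others) the changes from Par differed between LM2 and BrM2 in the direct edgeR comparison of the sub-populations, in which 8.1% of all tested genes were called. Both lists were chosen with earlier results of these data known, so nothing is read from this count. The log2 fold change in BrM2 vs LM2 was -3.03 for STRA6, 1.19 for CYP26B1, -0.94 for DHRS7, 4.12 for SDR16C5, 3.27 for RARB, -1.85 for TGM2 and 1.47 for MEIS1. Those of STRA6, SDR16C5 and RARB were kept in all 9 fits without 1 library. With replicate 2 or replicate 3 left out of all lines, the call of STRA6 was lost. In the lowest fit without a replicate number, SDR16C5 and RARB were not both kept. STRA6, RARB and MEIS1 had passed the filter, which was not redone, only through the line where they were highest. The call of CYP26B1 was lost without LM2 replicate 2 or LM2 replicate 3 (adjusted p = 0.058 and 0.055, edgeR). The call of MEIS1 was kept only in the fit without LM2 replicate 1, with adjusted p of 0.057 to 0.13 in the other 8 (edgeR). That of DHRS7 was lost without LM2 replicate 2, LM2 replicate 3 or BrM2 replicate 3 (adjusted p of 0.057 to 0.083, edgeR), and that of TGM2 without Par replicate 2, BrM2 replicate 2 or BrM2 replicate 3 (0.054 to 0.12).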

How the results depend on the processing

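Of 285 alternative values for the 5 tested members, 250 kept their side of the threshold, 19 newly passed and 16 no longer passed, and no called difference changed sign. With the replicate block, 4510, 5577 and 4896 genes were called in LM2 vs Par, BrM2 vs Par and BrM2 vs LM2, against 1134, 1733 and 1057 without it. The block called 3 members for LM2 against Par and 4 for BrM2 against LM2, against 1 and 2, and 15, 17 and 15 genes of the wider list, against 5, 10 and 5. It removed no call of a member. DESeq2 called 1893 genes for LM2 against Par and 1824 for BrM2 against LM2, with 2 and 4 members. A fit of LM2 and BrM2 alone called 598 genes and 2 of the wider list. Leaving out libraries gave 70 to 4327 genes in LM2 vs Par, 159 to 5274 in BrM2 vs Par and 53 to 4257 in BrM2 vs LM2. The members called then ran from 0 to 3, 0 to 2 and 0 to 4, and the wider list from 0 to 14, 1 to 16 and 1 to 16. The lowest counts of the wider list came from fits without a replicate number. Calls of that list kept in every fit without 1 library were not all kept there. The lowest counts of genes came without replicate 2 and the highest without replicate 1 of all lines. The cause was not tested. A fit with the block and no filter was added after seeing the data, and RARRES1 then passed in BrM2 vs Par (adjusted p = 0.0039, edgeR). At under 25 counts, RARRES1 is limited by depth.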

Other observations

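Genes of the pathway below the filter on low counts were not tested, and those named here were chosen after their values were seen, so that their counts are a description only. RDH5, a retinol dehydrogenase, had 13, 12 and 14 counts in Par, 8, 10 and 19 in LM2 and 1, 2 and 3 in BrM2. BTG2, an antiproliferative gene that responds to retinoic acid, had 26, 15 and 26 counts in Par, 4, 9 and 4 in LM2 and 6, 5 and 7 in BrM2. Others were higher in a sub-population. CD38, an ectoenzyme induced by retinoic acid in leukaemia cells, had 11, 9 and 9 counts in Par, 19, 26 and 20 in LM2 and 4, 13 and 13 in BrM2. HOXB2, a homeobox factor, had 1, 0 and 1 counts in Par, 3, 6 and 4 in LM2 and 7, 2 and 3 in BrM2.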
